A study of Mus musculus with 11 samples.

Results

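The Hist1 locus of the mouse, the largest of its replication-dependent histone gene clusters, was described through the ATAC-seq regions that cover it on chromosome 13. ATAC-seq measures open chromatin: the Tn5 transposase cuts accessible DNA, and the sequenced pieces are counted per region. A region was a member when it started from 21700000 to 22060000 or from 23520000 to 23790000 on chromosome 13 (GRCm38), a choice by position alone. These windows held 120 of the 248336 regions of the table, 74 in the first and 46 in the second. The 10368 other regions of chromosome 13, outside 58 to 70 Mb, served as the reference.

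Embryonic stem cells of 4 mouse lines gave the 11 libraries, and were kept in serum with LIF, the MEK inhibitor PD0325901 and the GSK3 inhibitor CHIR99021. B6 stands for inbred C57BL/6J mice, with 3 libraries of a line named B6 5-1, and D2 for inbred DBA/2J mice, with 3 libraries of a line named D2 5-5. B6-13D2 is the congenic strain B6.D2-(rs30079041-rs51756099)/Bakr, a B6 background with a D2 interval of chromosome 13 (QJ 6-1, 2 libraries). D2-13B6 is the reciprocal congenic D2.B6-(rs29224292-rs13469455)/Bakr, a D2 background with a B6 interval (XE 2-4, 3 libraries); the series' design text names rs51756099 as its distal marker. The positions of these markers are not given in the sources used here, so that the labels do not tell whether the histone windows lie inside either interval. Each library was made from 100000 cells by FAST-ATAC and read at 150 bp. Each genotype is 1 cell line, and its libraries are technical replicates per the labels. Errors and tests measure only how much libraries within lines vary, and groups differ as cell lines do. In such bulk libraries, fewer cells of a type and less signal per cell cannot be told apart.

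Replication-dependent histone genes supply the H1 linker histones and the core histones H2A, H2B, H3 and H4 that package new DNA in S phase. They have no introns, their mRNAs end in a stem-loop in place of a poly(A) tail, and their transcription is driven in S phase by NPAT with factors that bind class-specific promoter elements. Many H2A and H2B genes stand head to head and share the stretch between their start sites. The same stretch of chromosome 13 carries many tRNA genes, which RNA polymerase III transcribes from A and B boxes inside the gene.

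The windows hold 53 Hist1 genes in GENCODE M21 (6 of H1, 13 of H2A, 14 of H2B, 9 of H3 and 11 of H4), of which 52 are annotated as protein-coding, and 37 tRNA genes of the RefSeq annotation of GRCm38.p6. All 53 Hist1 genes had a region within 1000 bp of a start site, and 51 had a region over it. All 37 tRNA genes lay under a region. By annotation, 37 regions were assigned to histone genes (a Hist1 start site within 1000 bp, or Hist1 coding sequence), 31 to tRNA genes (within 1000 bp), 7 to start sites of other genes, and 45 to none of these. Of the 37 histone gene regions, 24 lie near start sites of 2 or more Hist1 genes, so that their counts cannot be split between genes.

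The sequences on which the results below turn are shown here, 5′ to 3′ on the strand given, in GRCm38.p6 as RefSeq provides it. Capitals mark TATAAA (the TATA box), CCAAT (the CCAAT box), ATTTGCAT (the octamer bound by POU2F1) and AAACACA (an element known from H1 promoters), searched on both strands. The first lies between the divergent start sites of an H2A and an H2B gene, within the most accessible region per kb of the windows, at chr13:23571221-23571399 (plus strand, 179 bases). The next pair is the 200 bases before the start sites of 2 linker histone genes, Hist1h1e at chr13:23622559-23622758 (minus strand) and Hist1h1t at chr13:23695611-23695810 (plus strand). Hist1h1e is shown because its region alone kept its call between the strains under all 5 scalings and with each library left out (below). The testis-specific Hist1h1t is shown because its region was the least accessible of H1. That region (23695971 to 23696573) lies inside the gene, 157 bp from the start site, so that the bases shown are outside it.
Hist1h2ae to Hist1h2bg: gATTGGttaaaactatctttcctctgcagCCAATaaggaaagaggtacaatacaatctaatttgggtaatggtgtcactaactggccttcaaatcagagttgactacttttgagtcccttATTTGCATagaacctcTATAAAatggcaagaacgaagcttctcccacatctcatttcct
Hist1h1e: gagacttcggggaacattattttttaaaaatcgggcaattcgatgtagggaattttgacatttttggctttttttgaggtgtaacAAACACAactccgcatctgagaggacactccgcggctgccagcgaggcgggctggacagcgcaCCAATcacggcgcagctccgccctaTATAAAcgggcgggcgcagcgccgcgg
Hist1h1t: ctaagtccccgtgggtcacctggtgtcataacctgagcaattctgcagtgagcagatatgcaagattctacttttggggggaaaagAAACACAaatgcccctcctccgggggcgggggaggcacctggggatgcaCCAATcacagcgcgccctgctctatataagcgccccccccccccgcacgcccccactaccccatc

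Among tRNA genes, the serine gene n-TSgct5 (chr13:22050686-22050767, minus strand) lies under the tRNA gene region with the highest level per kb, and the arginine gene n-TRacg1 (chr13:22021144-22021216, minus strand) under the tRNA gene region with the largest called interaction. Capitals mark a B box, searched on both strands in 1 spelling with 1 free base. An intergenic region of 218 bases, chr13:23660039-23660256, is shown because it gave the largest fold change of the windows. No motif is marked in it, although it holds a match of CCAAT.
n-TSgct5: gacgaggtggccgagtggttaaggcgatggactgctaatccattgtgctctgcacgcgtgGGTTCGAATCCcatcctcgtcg
n-TRacg1: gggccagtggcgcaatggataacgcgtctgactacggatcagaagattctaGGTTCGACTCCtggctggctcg
intergenic: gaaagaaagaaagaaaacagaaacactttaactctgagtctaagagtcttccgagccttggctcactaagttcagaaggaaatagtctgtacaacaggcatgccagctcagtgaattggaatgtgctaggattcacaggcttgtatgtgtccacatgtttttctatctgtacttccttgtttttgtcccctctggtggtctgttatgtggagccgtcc

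The promoter table of RefSeq matched 49 of the 53 Hist1 genes, and the 250 bases before each start were searched. CCAAT was found in all 6 H1, all 12 H2A, all 13 H2B and all 7 H3 promoters but in 3 of 11 H4 promoters, against 33.8% of the 32851 promoters of the table. TATAAA was found in 24 of the 49 (49%), against 12.4% of all promoters. The octamer stood in 4 of 12 H2A and 4 of 13 H2B promoters and in none of the other 3 classes, against 1.6% of all promoters. AAACACA was found in 5 of 6 H1 promoters (83.3%), against 6.25% of all promoters. Divergent H2A and H2B genes share part of these bases, so that their promoters are not independent. Among the tRNA genes, 17 of 37 (45.9%) held the B box in the spelling searched, against 163 of the 403 tRNA genes on the chromosomes (40.4%). A match describes letters and is not evidence of binding, and a missing match says only that these letters are not in the window.

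**Figure D1:**
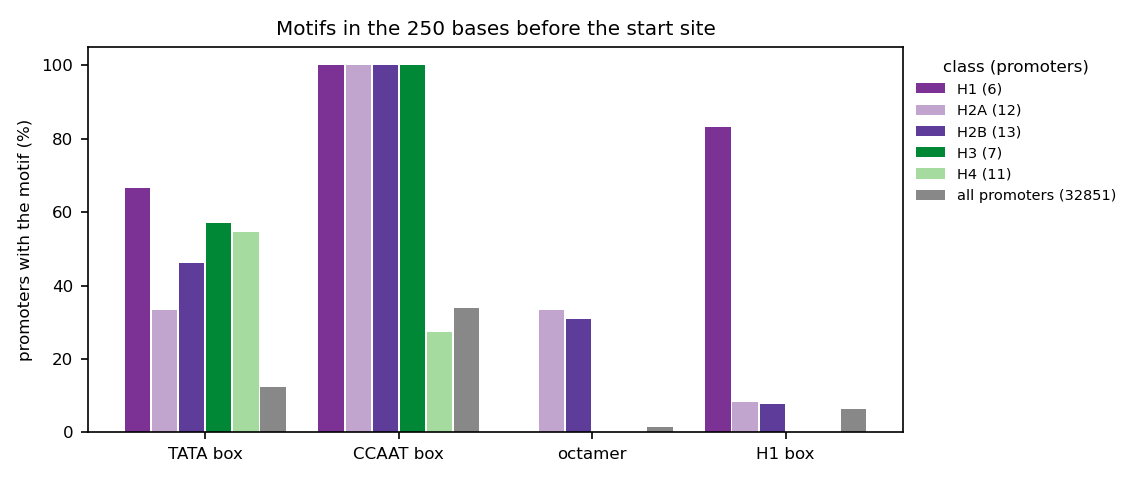
Share of promoters (%) with a match of each motif in the 250 bases before the start site, for the Hist1 genes of each histone class and for all promoters of the table; the number of promoters is in brackets. CCAAT reaches 100% in H1, H2A, H2B and H3 and 27.3% in H4, the octamer appears in H2A and H2B and in no promoter of the other 3 histone classes, and AAACACA reaches 83.3% in H1.

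Total counts in regions ran from 15198496 to 43042955 per library, and the members held 0.123% to 0.168% of them. The median count of a member was 103.5 in the shallowest library and 279 in the library where it was highest. In its leading promoter region, each of 7 embryonic stem cell markers (Pou5f1, Nanog, Sox2 and others) had 3.85 to 12.5 normalised CPM per kb as the mean of a line. Those of 5 fibroblast markers had 4.05 to 15.7 and of 5 extraembryonic endoderm markers 3.47 to 10.3, so that these levels do not set the cell types apart. The D2-13B6 line stood apart from the rest of the series: the reference regions of chromosome 13 held 3.08% ± 0.0651 of its counts (SD, n = 3) and 3.42% to 3.46% on average in the other lines. Relative to B6, its stem cell marker promoters had 1 higher and 8 lower of 13 regions (median log2 fold change -0.66), extraembryonic endoderm markers 1 and 3 of 6 (median -0.31), and fibroblast markers 7 and 0 of 11 (median 0.81; Col1a1 from 14.3 to 35.9 normalised CPM in its leading region; Col3a1 had no region), against 21.6% higher and 20.1% lower of all regions tested. Start site regions of other chromosomes had 13762 higher and 6028 lower of 36457 tested in the same comparison. The part of the marker and chromosome 13 shifts in the results for D2-13B6 was not tested.

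Histone gene regions were among the more open regions of the genome. Levels are counts scaled to the TMM-adjusted library total (normalised CPM), averaged over the 4 lines, and levels of different regions are compared per kb. The median over the 37 histone gene regions was 9.25 normalised CPM per kb, at the 92.8th percentile of all regions, against 2.98 over the other chromosome 13 regions and 4.68 over those of them at start sites. The 9 regions of histone clusters 2, 3 and 4 on other chromosomes had a median of 10.7. By class, the medians were 12.4 for H1 (7 regions), 9.34 for H2A (19), 8.9 for H2B (20), 8.34 for H3 (11) and 8.82 for H4 (11), where a region near genes of several classes counts in each. The tRNA gene regions had a median of 6.46, below the 8.87 of the 186 regions at tRNA genes of other chromosomes. The 106 of those 186 regions that lie at no gene start site had a median of 7.97. The 7 regions at other start sites had 6.29 and the 45 remaining regions 2.87, near the chromosome's level. The windows' regions were also wide, with a median of 1325 bp against 548 bp over all regions.

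The stretch between Hist1h2ae and Hist1h2bg, shown above, lies in the most accessible region per kb, from 23570897 to 23571572, at 25.9 normalised CPM per kb, although 35.8% of its 31-base words occur elsewhere in the genome. Of H1, the coding region of Hist1h1d (23554315 to 23556794), which holds the start site of RefSeq and lies 1053 bp from that of GENCODE, reached 16.0 per kb, and the region of Hist1h1c (23737913 to 23741303) reached 14.9. The region inside Hist1h1t, the testis-specific linker histone, was lowest with 4.51 per kb. The region over Hist1h1a, Hist1h3a and Hist1h4a (23759288 to 23765584) was the highest of both H3 and H4, at 12.0 per kb. Outside histone genes, the highest level was that of n-TSgct5 (22049575 to 22052012), at 14.2 per kb. Among the regions at no start site or tRNA gene, it was that of an intergenic region 2291 bp from the start site of Hist1h4c (23700745 to 23701658), at 11.1 per kb.

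Near-identical gene copies limit what can be read in places. In 8 of the 120 regions all 31-base words recur elsewhere in the genome, and these 8 were the ones left untested for low counts, with at most 7 counts in any library. They include 2 regions at Hist1h2ap and Hist1h2br (21833340 to 21833884 and 21834082 to 21835438), which had 0 counts in all 11 libraries. The lowest H4 region, over Hist1h2ao, Hist1h2bq and Hist1h4m (21808466 to 21812523, 2.74 per kb), is 98.0% repeated words. How reads with several placements were counted is not given in the sources used here, so that a low count there is not evidence of closed chromatin. In 85 members, under 20% of the words are repeated.

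**Figure D2:**
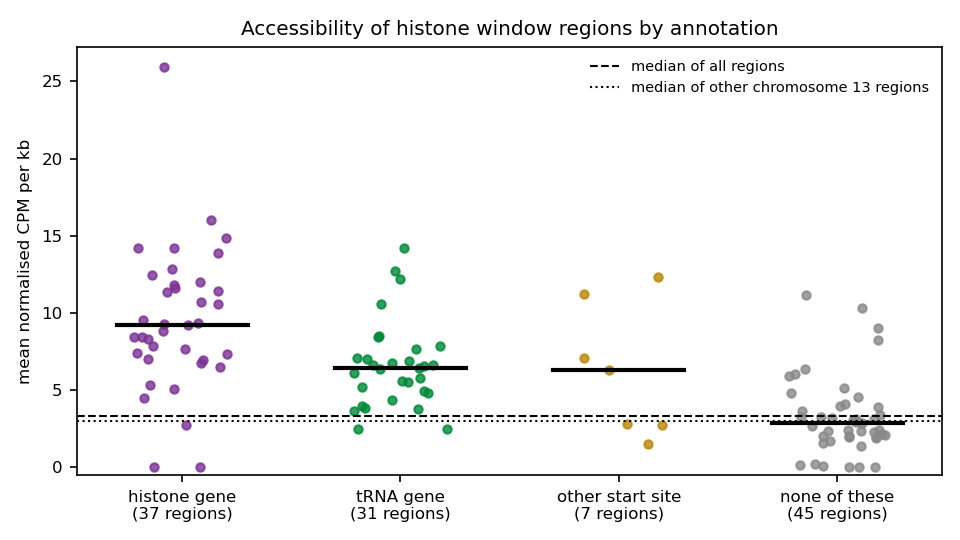
Mean normalised CPM per kb of the 120 regions of the histone windows (points, 1 per region), by annotation, with the median of each class as a bar and the medians of all regions and of the other chromosome 13 regions as lines. Histone gene regions have the highest median, 9.25, and regions at no start site or tRNA gene the lowest, 2.87; the points at 0 are regions made of repeated sequence.

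Summed over the 120 regions, the windows' signal was 1391 ± 96.0 normalised CPM for B6 and 1666 ± 69.95 for D2 (SD, n = 3 each), and among the congenic lines 1483 ± 117 for B6-13D2 (SD, n = 2) and 1559 ± 377 for D2-13B6 (SD, n = 3). The D2 libraries, from 1598 to 1738, all lay above the B6 libraries, from 1283 to 1466. The D2-13B6 libraries covered a wider range than the 8 others together, with 1469, 1974 and 1236 for replicates 1, 2 and 3. The TMM factors of these libraries were 0.894, 0.769 and 0.997, against 0.969 to 1.10 in the other lines, and as a share of unscaled counts the members held 0.131%, 0.152% and 0.123%. Per 100 counts in the reference regions of chromosome 13, the members had 4.40 in B6, 4.78 in D2, 4.66 in B6-13D2 and 4.39 in D2-13B6. Counts of calls against D2-13B6 are therefore given with and without its replicate 2, and under the scalings that move them.

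**Figure D3:**
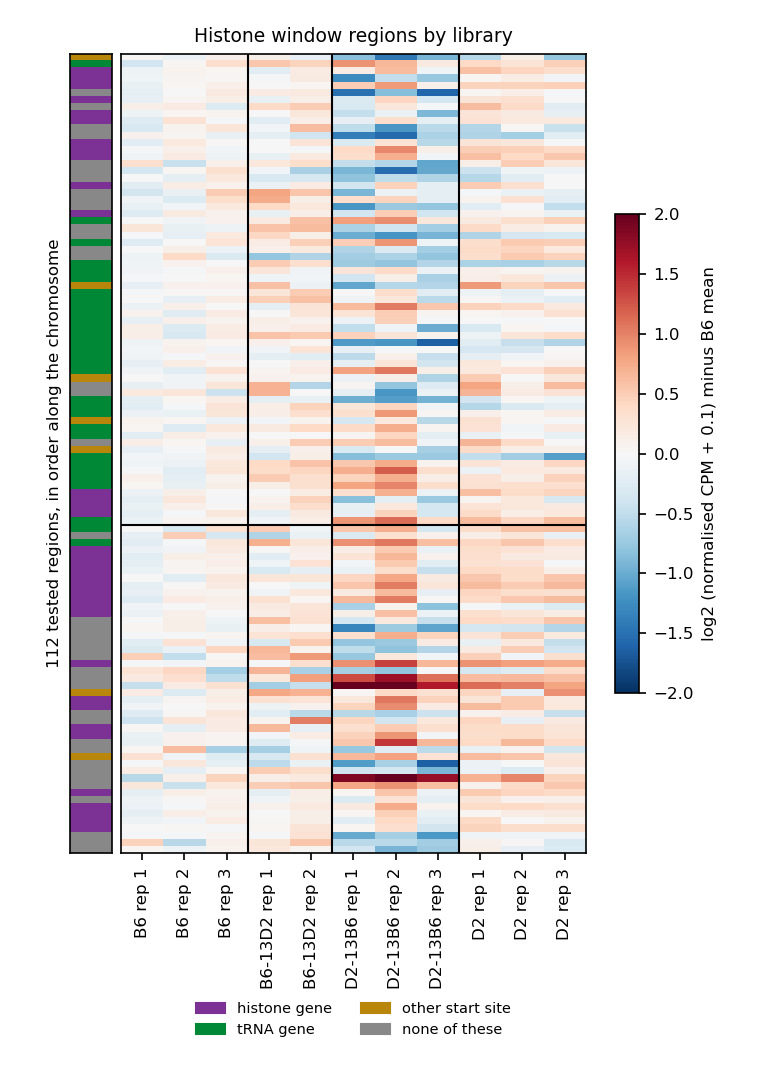
Log2 normalised CPM of the 112 tested regions (rows, in order along the chromosome, with a line between the windows) in the 11 libraries (columns), minus the mean of the B6 libraries; the strip at the left gives the annotation. The D2-13B6 columns hold the strongest colours of both signs, replicate 2 is the reddest of them at histone and tRNA genes, and the B6-13D2 columns stay near B6.

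Each region was tested with edgeR's quasi-likelihood test in 1 fit of all 11 libraries over the 246840 regions with enough counts. It was called when the Benjamini-Hochberg adjusted p-value was under 0.05. In each region the 4 lines share 1 estimate of the spread, so that an SE is not that of the compared lines alone. Libraries of D2-13B6 varied most: chi-square per degree of freedom between 2 libraries of a line was 4.54 to 6.33. It was 2.98 to 4.12 in D2, 2.06 to 2.27 in B6 and 2.11 in B6-13D2. Such values grow with depth as well as with spread. Every library of D2-13B6 and D2 was deeper than those of B6 and B6-13D2. The part of depth in this order was not tested, nor was the part of the spread in the counts of calls. The 112 tested members comprised 35 histone gene regions, all 31 tRNA gene regions, all 7 at other start sites and 39 others. Differences are log2 fold changes with a standard error (SE). For a called member described with its values, it is said where the call was lost under other settings. The settings were 5 other scalings (RLE factors, total counts, TMM on the chromosome 13 reference, offsets following abundance, and offsets following GC content). Each of the 11 libraries was also left out in turn. Calls at genes outside the windows are given without such losses, and were not followed in the left-out fits.

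Between the strains, the called histone gene regions were higher in D2 than in B6 with TMM scaling, while offsets that follow abundance left calls in both directions. In D2 against B6, of the 112 regions, 15 were higher and 1 was lower, or 14.3% in all, against 22.5% of all regions tested (13.7% higher and 8.8% lower) and 22.2% of the other chromosome 13 regions. The 10 calls among histone gene regions were all higher in D2, by 0.46 to 0.82 log2 units, and all 10 lie over start sites. They cover H2A and H2B pairs (Hist1h2ai with Hist1h2bl, Hist1h2aj with Hist1h2bm, Hist1h2an with Hist1h2bp, Hist1h2ah with Hist1h2bk, Hist1h2ae with Hist1h2bg, Hist1h2ac with Hist1h2bc), H3 genes (Hist1h3h, Hist1h3i, Hist1h3e and Hist1h3d) and the linker histone gene Hist1h1e. Of the 11 H4 regions, edgeR and DESeq2 each called 0, with 1 at an unadjusted p under 0.05 in edgeR and a median log2 fold change of 0.23 against 0.31 over all histone gene regions. Total counts gave 1 higher and offsets that follow abundance 2 lower H4 regions; a difference between classes was not tested. The 1 lower region (22014400 to 22014919) lies over a start site of Gm11290 and within 1000 bp of the valine tRNA gene n-TVaac3. It had 2.59, 2.56 and 2.98 normalised CPM in B6 and 1.89, 1.63 and 1.20 in D2 (-0.78, SE 0.24, edgeR adjusted p = 0.0127). This call was lost without B6 replicate 3 or D2 replicate 3. Start sites elsewhere moved in the same direction: 336 of 1285 tested start site regions of the chromosome 13 reference were higher and 65 lower (median 0.17), and the share of all counts that lay at start sites was 43.7% ± 1.34 in D2 and 38.9% ± 0.573 in B6 (SD, n = 3 each).

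The direction of the histone gene regions between D2 and B6 rested on the scaling and their number on single libraries. The 10 higher and 0 lower became 11 and 0 with total counts, 8 and 0 with GC offsets, 4 and 0 with DESeq2, and 3 and 0 with RLE factors or the chromosome 13 reference, but 3 higher and 2 lower with offsets that follow abundance (median -0.09). Over all members, those offsets gave 6 higher and 6 lower, total counts 14 and 4, and the chromosome 13 reference 7 and 2. Histone gene regions have a median of 25.9 normalised CPM where all regions have 1.83, toward the high end of the abundance range. The median of all regions was -0.01 with TMM and -0.14 with total counts. The count of 16 fell to 3 without B6 replicate 1, 4 without D2 replicate 1, 8 without D2 replicate 3, 9 without B6 replicate 2 or 3 and 10 without either B6-13D2 library, and it was 27 without D2-13B6 replicate 2 or 3.

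A single region kept its call between D2 and B6 through all 16 of these settings, the region of Hist1h1e and Hist1h2be from 23620560 to 23622849. Hist1h1e encodes a linker histone of somatic cells, and the region overlaps its start site and coding sequence. It had 21.8, 21.3 and 23.1 normalised CPM in B6, 41.4, 39.0 and 36.9 in D2, 21.8 and 27.5 in B6-13D2, and 41.6, 57.1 and 34.9 in D2-13B6. All 6 libraries with a D2 background lay above all 5 with a B6 background. The log2 fold change of D2 against B6 was 0.82 (SE 0.17, edgeR adjusted p = 0.000185), with 0.44 to 0.84 over the scalings. Against B6, D2-13B6 differed by 1.01 (SE 0.17, edgeR adjusted p = 1.42e-06), and against B6-13D2, D2 differed by 0.67 (SE 0.20, edgeR adjusted p = 0.00989), a call lost with offsets that follow abundance and without B6-13D2 replicate 1. D2 against D2-13B6 gave -0.19 (SE 0.17, edgeR adjusted p = 0.469).

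The divergent promoter of Hist1h2ae and Hist1h2bg was also higher with a D2 background. Its region had 12.0, 14.1 and 15.7 normalised CPM in B6, 21.5, 19.7 and 21.8 in D2, 13.9 and 13.1 in B6-13D2, and 20.4, 28.2 and 16.5 in D2-13B6. The D2 libraries did not overlap the B6 libraries, and the lowest D2-13B6 library came close to the highest B6 library. D2 against B6 gave 0.59 (SE 0.17, edgeR adjusted p = 0.00778), a call lost without B6 replicate 1. D2-13B6 against B6 gave 0.64 (SE 0.17, edgeR adjusted p = 0.0018), lost with offsets that follow abundance, and D2 against B6-13D2 gave 0.64 (SE 0.20, edgeR adjusted p = 0.0155), lost without D2 replicate 1 and without either B6-13D2 library. The widest H1 region, of Hist1h1a with its H3 and H4 neighbours, had 68.6, 69.0 and 66.8 in B6 and 93.3, 86.9 and 86.9 in D2 without passing the test (0.39, SE 0.17, edgeR adjusted p = 0.0988). Hist1h1c had 39.5, 48.5 and 47.2 in B6 and 64.4, 60.2 and 58.3 in D2 (0.44, SE 0.17, edgeR adjusted p = 0.0583). Hist1h1t differed by 0.32 (SE 0.23, edgeR adjusted p = 0.342).

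With the B6 interval on both backgrounds, D2-13B6 against B6 gave the most calls, in both directions. It shares the B6 libraries with the comparison above. Of the 112 regions, 26 were higher in D2-13B6 and 24 lower, or 44.6% in all, against 41.7% of all regions tested (21.6% higher and 20.1% lower) and 54.8% of the other chromosome 13 regions. The members' median log2 fold change was 0.01, that of the chromosome 13 reference -0.48 and that of all regions -0.13. Histone gene regions gave 9 higher and 3 lower of 35, tRNA gene regions 11 and 5 of 31, other start sites 1 and 2 of 7, and the remaining regions 5 and 14 of 39, with medians of 0.20, 0.25, -0.20 and -0.58. TMM on the chromosome 13 reference moves the median of all regions to 0.18. With it, the split of all members was 48 higher and 12 lower. With total counts, where that median is -0.43, it was 13 and 49, with offsets that follow abundance 17 and 48, and without D2-13B6 replicate 2 it was 15 and 31.

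For the histone gene regions, the direction in D2-13B6 against B6 turned with these choices: the 9 higher and 3 lower became 20 and 1 with the chromosome 13 reference, 10 and 2 with RLE factors or GC offsets, 12 and 2 with DESeq2, 2 and 13 with total counts and 3 and 21 with offsets that follow abundance. Leaving out D2-13B6 replicate 2 gave 2 higher and 6 lower, and leaving out replicate 3 gave 18 and 2. Of the 12 calls, 2 held through all 16 settings: the Hist1h1e region described above, higher, and a region within 1000 bp of the start site of Hist1h3h that lies over its coding sequence (21717947 to 21719507), lower by -0.82 and also higher by 0.86 in D2 than in D2-13B6. In this comparison the regions of Hist1h2aj with Hist1h2bm, of Hist1h3e and of Hist1h2ac with Hist1h2bc changed sign with offsets that follow abundance, to between -0.05 and -0.00.

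Several regions away from start sites had large changes in D2-13B6. An intergenic region 4734 bp from the start site of Hist1h2bm (21726778 to 21730168) had 21.2, 24.4 and 27.6 normalised CPM in B6, 24.9, 26.5 and 23.7 in D2, 27.1 and 27.5 in B6-13D2, and 8.60, 13.5 and 8.05 in D2-13B6. The 3 D2-13B6 libraries lay below all 8 others. The log2 fold change was -1.28 against B6 (SE 0.18, edgeR adjusted p = 7.53e-09) and -0.97 to -1.70 over the scalings, and D2 stood 1.32 above D2-13B6 (SE 0.18, edgeR adjusted p = 3.39e-08). D2 and B6 differed by 0.04 (SE 0.17, edgeR adjusted p = 0.914). Both calls held through all 16 settings.

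The largest fold change of the windows belonged to the 218 base intergenic region shown above, 2765 bp from the start site of Gm22452. It had 0.599, 0.976 and 1.09 normalised CPM in B6, 2.00, 1.85 and 1.58 in D2, 0.500 and 0.598 in B6-13D2, and 4.31, 4.67 and 2.82 in D2-13B6. The 3 ranges of B6-background, D2 and D2-13B6 libraries did not overlap. D2-13B6 exceeded B6 by 2.18 (SE 0.27, edgeR adjusted p = 3.22e-10) and D2 exceeded B6-13D2 by 1.72 (SE 0.36, edgeR adjusted p = 0.000247), through all 16 settings. D2 exceeded B6 by 1.06 (SE 0.28, edgeR adjusted p = 0.00353), a call lost without B6 replicate 1, and lay below D2-13B6 by -1.12 (SE 0.23, edgeR adjusted p = 0.000103).

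A further intergenic region, 1979 bp from Gm11338 (23730527 to 23730897), had 0.732, 1.22 and 1.58 normalised CPM in B6, 1.89, 2.30 and 1.58 in D2, 1.23 and 1.30 in B6-13D2, and 4.39, 5.33 and 3.99 in D2-13B6. Its D2-13B6 libraries stood above the 8 others. D2-13B6 exceeded B6 by 1.99 (SE 0.25, edgeR adjusted p = 6.30e-10) and D2 lay below D2-13B6 by -1.25 (SE 0.22, edgeR adjusted p = 9.55e-06), both through all 16 settings. D2 exceeded B6 by 0.74 (SE 0.27, edgeR adjusted p = 0.033), a call lost with total counts and in 4 of the 11 fits with a library left out. The highly accessible intergenic region 2291 bp from Hist1h4c had 7.02, 8.29 and 8.14 in B6, 10.4, 12.3 and 10.2 in D2, 6.55 and 7.57 in B6-13D2, and 11.4, 20.9 and 12.3 in D2-13B6. Its D2-13B6 libraries lay above those of both B6 backgrounds, by 0.93 against B6 (SE 0.18, edgeR adjusted p = 1.88e-05). Its call for D2 against B6 (0.49, SE 0.18, edgeR adjusted p = 0.0421) was lost under all 5 scalings and in 8 of the 11 fits with a library left out. At the outer ends of the windows, the first region (21701628 to 21702255, within Olfr1359, an olfactory receptor gene) was lower in D2-13B6 than in B6 by -1.12 (SE 0.28, edgeR adjusted p = 0.000678), and the last (23778114 to 23779445, over an exon of Trim38) by -0.68 (SE 0.20, edgeR adjusted p = 0.0040), a call lost with the chromosome 13 reference.

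**Figure D4:**
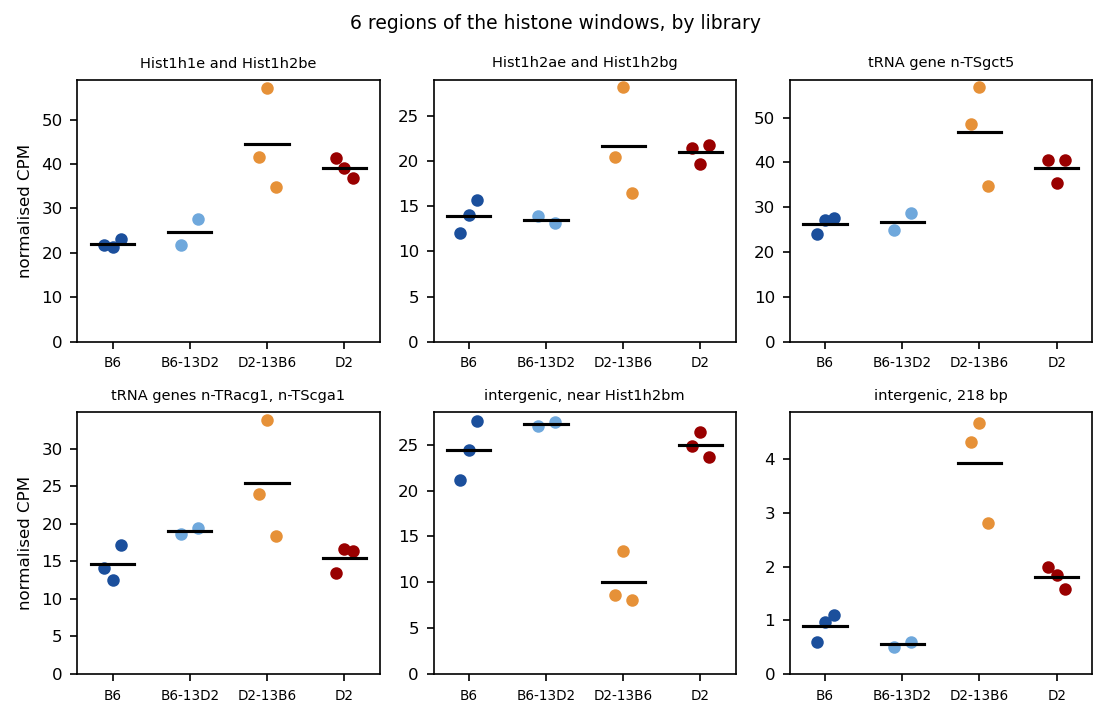
Normalised CPM of 6 regions in the 11 libraries (points) with the mean of each line (bars). The regions of Hist1h1e, Hist1h2ae and n-TSgct5 are higher in both lines with a D2 background, and the region near Hist1h2bm and the 218 bp region are lowest and highest in D2-13B6.

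With the D2 interval in both backgrounds, fewer regions were called, in a comparison with 2 B6-13D2 libraries. D2 against B6-13D2 gave 7 higher and 4 lower regions, 9.82% of the 112, against 18.8% of all regions tested (11.6% higher and 7.24% lower) and 17.9% of the other chromosome 13 regions. The histone gene regions, whose median log2 fold change was 0.24 here and 0.20 with the B6 interval, had 3 higher and 0 lower, those of Hist1h1e, of Hist1h2ae with Hist1h2bg, and of Hist1h1d; the latter had 35.9, 40.7 and 41.1 normalised CPM in B6, 31.7 and 34.7 in B6-13D2 and 51.7, 50.8 and 42.9 in D2 (0.55, SE 0.20, edgeR adjusted p = 0.0400, lost under 3 of the 5 scalings and in 6 of the 11 left-out fits). With offsets that follow abundance, the histone gene regions had 1 higher and 7 lower and all members 4 and 15, and total counts gave 10 and 13 over all members. The count of 11 was 3 without B6-13D2 replicate 1, 4 without its replicate 2, 6 without D2 replicate 1, and 22 and 21 without D2-13B6 replicates 2 and 3. The calls of 2 regions held through all 16 settings, the 218 bp region and the region from 21864600 to 21866780.

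D2-13B6 against B6 and D2 against B6-13D2 share no library. In both, 6 members were called with the same sign (5 higher and 1 lower with the D2 background), against 15.4% of all regions tested. The 5 higher are the regions of Hist1h1e, of Hist1h2ae with Hist1h2bg, of n-TSgct5 and the intergenic ones of 218 bp and near Hist1h4c. With the D2 interval, the call of n-TSgct5 was lost under 3 of the 5 scalings and in 8 of the 11 left-out fits, that near Hist1h4c without either B6-13D2 library, and that of the lower region without B6-13D2 replicate 1. With the B6 interval, the call of the lower region was lost with the chromosome 13 reference; losses for Hist1h1e and Hist1h2ae are given above. The lower one lies beside the isoleucine tRNA gene n-TIaat10 (21880671 to 21881434), with 2.00, 2.26 and 2.10 normalised CPM in B6, 1.32, 1.31 and 1.4 in D2, 3.05 and 2.69 in B6-13D2, and 1.25, 1.18 and 1.38 in D2-13B6. The groups with a D2 background lay below those with a B6 background in every library. The difference on the log2 scale came to -0.73 (SE 0.25, edgeR adjusted p = 0.0157) with the B6 interval, and it was -1.09 (SE 0.27, edgeR adjusted p = 0.00196) with the D2 interval.

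No member was called for the exchange of the chromosome 13 interval on the B6 background. In B6-13D2 against B6, 0 of the 112 regions were called by edgeR's quasi-likelihood test, against 0.474% of all regions tested and 0.495% of the other chromosome 13 regions, a share that would amount to less than 1 region here. At an unadjusted p under 0.05 there were 8 (7 higher in B6-13D2), 6 of them at tRNA genes, and DESeq2 called 0 and had 6 at that unadjusted threshold. A fit of the B6 and B6-13D2 libraries alone called 1, the region of the tRNA genes n-TGgcc7 and n-TMcat7 (21709841 to 21711723), at 0.49 (SE 0.14, edgeR adjusted p = 0.0429). The median log2 fold change was 0.07 over histone gene regions and 0.21 over tRNA gene regions. For Hist1h1e, the difference was 0.16 (SE 0.19, edgeR adjusted p = 0.943), and for the region near Hist1h2bm it was 0.16 (SE 0.19, edgeR adjusted p = 0.939).

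For the interval on the D2 background, the comparison of D2 with D2-13B6 gave 23 higher and 5 lower regions, 25.0% of the 112. This stands against 23.7% of all regions tested (8.53% higher and 15.2% lower) and 39.0% of the other chromosome 13 regions. Of 10300 tested regions of the chromosome 13 reference, 2609 were higher and 1409 lower. The members' median log2 fold change was 0.15, that of the chromosome 13 reference 0.38. The calls lay mainly away from the genes: 15 higher and 3 lower among the 39 remaining regions, 3 and 0 among the 35 histone gene regions, 2 and 2 among the 31 tRNA gene regions, and 3 and 0 at the 7 other start sites. The 3 histone gene regions, at Hist1h3h, at Hist1h4k and at Hist1h2bk, all cover coding sequence, and that of Hist1h4k also its start site. The 3 higher and 0 lower histone gene regions became 19 and 0 with total counts, 18 and 0 with offsets that follow abundance, 14 and 0 without D2-13B6 replicate 2, and 1 and 4 with the chromosome 13 reference. Over all members the split turned with the chromosome 13 reference, which moves the median of all regions from 0.04 to -0.29, to 10 higher and 28 lower. It was 50 and 4 with total counts, 40 and 7 with offsets that follow abundance and 32 and 3 without D2-13B6 replicate 2, and 17 were called in all without D2 replicate 1. Of the 28 calls, 13 held through all 16 settings, among them those of the regions near Hist1h2bm and near Gm11279. The 2 comparisons of the interval share no library. As no member was called on the B6 background, by edgeR or DESeq2, none could be called in both. Of all regions tested, 0.194% were called in both with the same sign. At an unadjusted edgeR p under 0.05, 0 members had the same sign in both.

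The region near Gm11279, 390 bp from its start site (21900749 to 21902766), had 4.59, 5.49 and 5.47 normalised CPM in B6, 9.44, 7.04 and 7.65 in D2, 7.78 and 4.73 in B6-13D2, and 2.47, 3.45 and 3.40 in D2-13B6. D2-13B6 was below every other library, and D2 overlapped only the first B6-13D2 library. D2 exceeded D2-13B6 by 1.38 (SE 0.19, edgeR adjusted p = 7.33e-08), in all 16 settings.

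At tRNA genes, D2-13B6 was higher than B6 over many of the genes with TMM scaling, a split that other scalings changed. Of the 27 regions over a tRNA gene, 11 were higher and 1 lower in D2-13B6 than in B6. All 4 regions that lie beside one were lower, among them the region over the start site of Gm11290. This division was made after the values were seen. The tRNA gene regions together had 11 higher and 5 lower, which became 20 and 2 with the chromosome 13 reference, 8 and 8 with offsets that follow abundance and 7 and 9 with total counts. At tRNA genes of other chromosomes, 102 of 176 tested regions were higher and 14 lower in that comparison (56 and 22 with offsets that follow abundance), with a median of 0.56 against 0.25 in the windows. In all 16 settings, 6 of the 11 higher calls and 2 of the 5 lower ones held. The 6 are the regions of the leucine genes n-TLtaa2 and n-TLcaa2, of n-TIaat7 with n-TTagt1, of n-TRacg1 with n-TScga1, of n-TSgct5 and of n-TRtcg1, and the 2 lie beside n-TSaga6 and n-TKttt22. The region beside the serine gene n-TSaga6 (21928398 to 21929462) had 4.56, 5.12 and 5.03 normalised CPM in B6, 4.20, 3.53 and 3.21 in D2, 5.28 and 5.03 in B6-13D2, and 2.18, 2.12 and 1.51 in D2-13B6. Its D2-13B6 libraries lay below the 8 others, by -1.32 against B6 (SE 0.21, edgeR adjusted p = 2.04e-07). The region over the aspartate gene n-TDgtc11 (21910621 to 21911938) was lower in D2 than in B6-13D2, with 8.91 and 9.57 in B6-13D2 against 6.49, 5.86 and 5.50 in D2 (-0.63, SE 0.20, edgeR adjusted p = 0.0166), a call lost without D2 replicate 3 and without either B6-13D2 library. Its means were 6.38 in B6 and 5.94 in D2-13B6, so that B6-13D2 had the highest mean of the lines. D2 and B6 differed by -0.11 (edgeR adjusted p = 0.748).

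The region of n-TSgct5 had 24.0, 27.1 and 27.7 normalised CPM in B6, 40.5, 35.4 and 40.5 in D2, 24.9 and 28.7 in B6-13D2, and 48.6, 56.8 and 34.7 in D2-13B6. The 6 libraries with a D2 background lay above the 5 with a B6 background. The differences were 0.83 for D2-13B6 against B6 (SE 0.17, edgeR adjusted p = 4.75e-05) and 0.56 for D2 against B6 (SE 0.17, edgeR adjusted p = 0.0107), the latter lost with offsets that follow abundance and without B6 replicate 1 or D2 replicate 1. The region of n-TSgct5 also lies 61 bp from the start site of Gm48356. The gene n-TSgct4, at the head of the second window, has the same 82 bases as n-TSgct5. Its region (23521624 to 23522272) held 7.68 normalised CPM per kb where that of n-TSgct5 held 14.2, with 4.03, 3.23 and 4.99 normalised CPM in B6 and 5.92, 6.73 and 3.13 in D2-13B6, which overlap.

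Such copies are common here, and regions over identical genes had unlike levels. The 37 tRNA genes hold 27 distinct sequences, and 5 of these are held by 2 to 4 genes, 15 genes in all. The 3 copies of the aspartate gene, n-TDgtc11, n-TDgtc13 and n-TDgtc12, lie under regions with 5.22, 8.47 and 12.2 normalised CPM per kb. The region of n-TDgtc13 also covers n-TSaga1, and that of n-TDgtc12 also covers n-TSaga8. For these regions, D2-13B6 against B6 gave -0.11, -0.07 and 0.70, and only the last was called (edgeR adjusted p = 0.00109, lost with offsets that follow abundance). The 3 copies of the isoleucine gene, n-TIaat11, n-TIaat10 and n-TIaat7, gave 0.48, 0.19 and 0.73, of which the first and last were called (edgeR adjusted p = 0.0344 and 0.000315), the first of them not with total counts, with offsets that follow abundance or in 4 of the 11 left-out fits. In these 6 regions at most 6.54% of the 31-base words recur elsewhere, so that most reads could be placed by their flanks. The regions of n-TIaat11, n-TIaat10 and n-TIaat7 also cover n-TTagt4, n-TFgaa1 and n-TTagt1, so that their counts are not those of the copies alone. The differences between copies were not tested.

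The interaction asks whether the interval's effect differs between the backgrounds, as (B6-13D2 minus B6) minus (D2 minus D2-13B6). It was called in 10 of the 112 regions (8.93%), 4 positive and 6 negative. This stands against 6.54% of all regions tested (4.55% positive and 1.99% negative) and 12.4% of the other chromosome 13 regions. Of 10300 tested regions of the chromosome 13 reference, 471 were called positive and 802 negative, and the median over all 10300 was -0.34. Of the 35 histone gene regions, edgeR called 0 (3 at an unadjusted p under 0.05) and DESeq2 called 0, while edgeR called 5 negative with offsets that follow abundance, 3 negative with total counts, 2 negative without D2-13B6 replicate 2 and 1 positive with the chromosome 13 reference. By annotation, 3 calls were at tRNA genes, 1 at another start site and 6 elsewhere. With the chromosome 13 reference, where the median of all regions moves from -0.02 to 0.30, the split was 18 positive and 3 negative, with offsets that follow abundance 6 and 13, and with total counts 2 and 14. The count was 2 without B6-13D2 replicate 2, 5 without its replicate 1, 6 without D2 replicate 1 or 3, and 20 without D2-13B6 replicate 3. Without D2-13B6 replicate 2 the split was 1 positive and 10 negative.

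Of these, 2 held through all 16 settings. The intergenic region from 21864600 to 21866780 had 5.32, 7.50 and 4.68 normalised CPM in B6, 7.32, 8.25 and 7.91 in D2, 3.32 and 3.74 in B6-13D2, and 3.48, 3.64 and 3.27 in D2-13B6. The congenic lines were both below their background strains, with the B6 and D2 libraries apart from the 5 congenic ones. The interaction was -1.88 (SE 0.29, edgeR adjusted p = 0.000108), with D2 exceeding B6-13D2 by 1.15 (SE 0.22, edgeR adjusted p = 5.56e-05) and D2-13B6 by 1.17 (SE 0.18, edgeR adjusted p = 7.36e-07), while B6-13D2 against B6 was not called (-0.71, SE 0.22, edgeR adjusted p = 0.211). Interspersed or low-complexity repeats cover 89.3% of it, and 40.8% of its 31-base words recur elsewhere, so that its counts depend on how reads with several placements were handled. The other was the region near Hist1h2bm, at -1.16 (SE 0.26, edgeR adjusted p = 0.00433).

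The tRNA gene region of n-TRacg1 and n-TScga1 (22020033 to 22022919, in an exon of Gm11290) gave the smallest p of the positive interactions, 1.10 (SE 0.27, edgeR adjusted p = 0.00705), a call lost without B6-13D2 replicate 2. It had 14.1, 12.5 and 17.1 normalised CPM in B6, 13.4, 16.6 and 16.4 in D2, 18.7 and 19.5 in B6-13D2, and 24.0, 33.8 and 18.4 in D2-13B6. The inbred strains overlapped, and all 5 congenic libraries lay above the 6 inbred ones. D2 was below D2-13B6 by -0.72 (SE 0.18, edgeR adjusted p = 0.00109), and D2 and B6 differed by 0.08 (SE 0.18, edgeR adjusted p = 0.807).

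**Figure D5:**
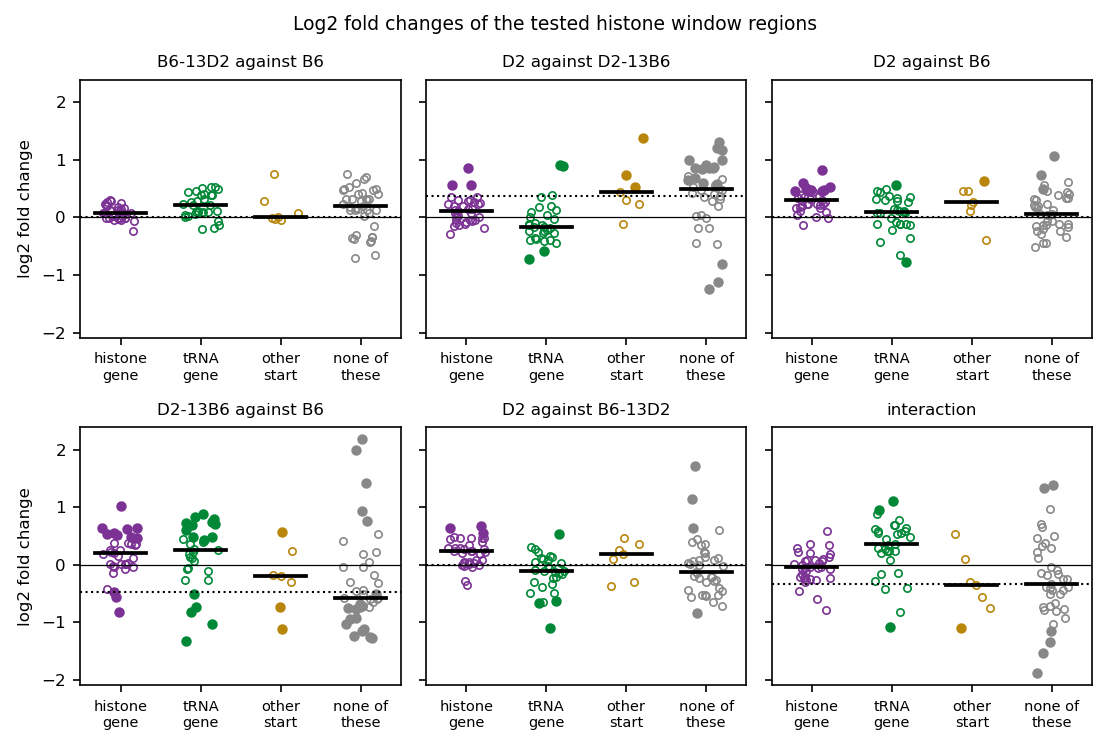
Log2 fold changes of the 112 tested regions in the 6 comparisons (panels), by annotation; filled points are called by edgeR at an adjusted p-value under 0.05, bars are class medians and the dotted line is the median of the other chromosome 13 regions. No point is filled for B6-13D2 against B6, the 10 filled histone gene points for D2 against B6 are all above 0 with TMM (3 above and 2 below with offsets that follow abundance), and the largest changes in the panels with D2-13B6 lie outside histone and tRNA genes.

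The promoters of genes that act on the cluster were compared on lists of their own. The list of histone gene transcription (NPAT, FLASH, cyclin E, CDK2 and the factors of the H2B and H4 promoters) had 12 promoter regions, of which 9 were higher and 0 lower in D2 than in B6 (median 0.61), 9 and 0 in D2-13B6 than in B6, and 8 and 0 in D2 than in B6-13D2. Of the 36457 tested start site regions of other chromosomes, 9011 were higher and 2412 lower, 13762 and 6028, and 7261 and 2056 in these comparisons. With offsets that follow abundance, the counts of the list became 3 and 0, 3 and 0, and 2 and 0. Yy1, which binds histone gene promoters among many others, rose from 21.5 to 39.6 normalised CPM between B6 and D2 (0.88, SE 0.18, edgeR adjusted p = 0.000188). Casp8ap2, the gene of FLASH, a partner of NPAT, was at 25.6 in B6-13D2 and 41.9 in D2 (0.71, SE 0.20, edgeR adjusted p = 0.00643). For histone pre-mRNA 3′ end processing, 9 of 19 regions were higher and 1 lower in D2 than in B6, and for histone chaperones 9 of 23 and 2, which became 3 and 1 and 4 and 4 with offsets that follow abundance. Asf1a, a chaperone of H3 and H4, rose from 14.1 to 29.3 (1.05, SE 0.18, edgeR adjusted p = 8.27e-06). Replacement histone genes had 6 of 11 regions higher and 0 lower, which became 2 and 1 with those offsets. H3f3b, a gene of the H3 variant that is deposited outside S phase as well, went from 25.2 to 40.6 (0.69, SE 0.17, edgeR adjusted p = 0.00179).

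Histone genes outside chromosome 13 gave a comparison within the family. Of the 9 regions of clusters 2, 3 and 4, 4 were higher and 0 lower in D2 than in B6 (median 0.34, against 0.31 over the Hist1 regions), or 1 and 1 with offsets that follow abundance. In D2-13B6 against B6, 7 were higher and 0 lower (median 0.62, against 0.20 over the Hist1 regions), or 4 and 1 with those offsets. Hist4h4, a histone H4 gene on chromosome 6, was at 20.6 normalised CPM in B6 and 43.0 in D2 (1.06, SE 0.17, edgeR adjusted p = 2.12e-06). The region of Hist3h2a on chromosome 11 was at 18.1 in B6 and 41.1 in D2-13B6 (1.18, SE 0.17, edgeR adjusted p = 4.31e-08). Whether cluster 1 differs from the other clusters was not tested.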

How the data were processed

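The data were raw ATAC-seq counts per region in 11 libraries of 4 mouse embryonic stem cell lines, in 1 table of whole-number counts deposited by the authors. Per the file headers, the counts come from sorted alignments without duplicate and mitochondrial reads. The submitters' processing notes list the genome mm10 and Trimmomatic 0.39, BWA 0.7.5, Picard 2.0.1, MACS 1.4.2, bedtools 2.9.2 and edgeR 3.34.1, without roles or order. How reads with several placements were counted, whether reads or fragments were counted, whether cut sites were shifted, and whether libraries were pooled to call regions are not given in the sources used here. These choices bear on counts in repeated sequence and on the edges of regions.

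Library totals ran from 15198496 to 43042955 counts in regions, so that a member at the median level was counted at least 103.5 times in every library. The counts were fitted with edgeR 4.0.16 in R 4.3.3 (filterByExpr, TMM factors, quasi-likelihood test, all 11 libraries in 1 fit with a term for each line) and p-values were adjusted for the 246840 regions tested (Benjamini-Hochberg); DESeq2 1.42.0 was an alternative. The fit was checked on simulated data. Levels are counts scaled to TMM-adjusted totals (normalised CPM). Gene annotation was GENCODE M21, and tRNA genes, promoters and sequences came from RefSeq for GRCm38.p6. Repeated sequence was measured as the share of a region's 31-base words that occur elsewhere in the genome. Replicate numbers did not pair libraries: deviations of same-numbered libraries correlated at -0.05 to 0.07 over 15 pairs.

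The members and gene lists were chosen with earlier results of these data known. By rule, the text names in each comparison the 2 called regions of smallest p per direction whose libraries do not overlap (for the interaction, with no rule on overlap), the highest and lowest region per histone class, the highest regions outside histone start sites, at tRNA genes and outside genes, and the first and last region of each window. The regions at Hist1h3h, at copies of tRNA genes and of n-TGgcc7, the tRNA gene regions counted as stable, the genes behind counts of calls, the divisions by overlap with a start site or tRNA gene, and the count of calls held under all 16 settings were chosen after values were seen. The alternatives were the scalings, offsets, filters, a minimum fold, fits of the compared lines alone, a block for replicate numbers, and leaving out each library. Not analysed here were effects of the sequence differences between the strains on read placement.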

Additional observations from a re-analysis of the deposited data

Results flagged for a closer look

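The 10 regions below were called for the interaction, (B6-13D2 minus B6) minus (D2 minus D2-13B6): the interval's effect in the B6 background differed from that in the D2 background by edgeR's quasi-likelihood test with Benjamini-Hochberg adjustment. Of the 6 negative values, the intergenic region from 21864600 had -1.88 and the one near Hist1h2bm, from 21726778, had -1.16. The region near Gm11279 (21900749) had -1.10, that beside the lysine tRNA gene n-TKttt22 (21968762) had -1.08, an intergenic region 4466 bp from the start site of Hfe (23715320) had -1.54, and one 4999 bp from that of Hist1h2bp (21792507) had -1.35. In all 6, D2 exceeded D2-13B6 while B6-13D2 did not pass the test against B6. Of the 4 positive values, n-TRacg1 with n-TScga1 (22020033) had 1.10, the intergenic region near Gm11338 (23730527) had 1.38, the one 8045 bp from Hist1h1e (23630603) had 1.34, and n-TRtcg1 (23526263) had 0.95. The last was near the threshold, with an adjusted p of 0.0490 by edgeR, and held under 3 of 5 scalings and in 2 of 11 fits with a library left out. The call from 21792507 held in 1 of 5 and 3 of 11, that near Gm11338 in 4 of 5 and 5 of 11, those from 23630603 and 23715320 in 4 and 5 of 5 and 8 of 11 each, those from 21900749 and 21968762 in 4 of 5 and 9 of 11 each, and that of n-TRacg1 in 5 of 5 and 10 of 11. Those from 21864600 and 21726778 held throughout. All positive regions had their highest mean in D2-13B6, and in all 6 negative ones D2-13B6 was called below both B6 and D2. The marker promoters and chromosome 13 share of D2-13B6 stood apart, and the part of that in these values was not tested.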

How the results depend on the processing

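The counts of called members by setting were as follows. In D2 against B6, the 16 became 8 with RLE factors or DESeq2 and 9 with the chromosome 13 reference. Of the 16, 8 lay among the 85 tested members with few repeated words, which were recounted and not refitted. The count became 0 with a minimum fold of 1.5 and 32 in a fit of the compared lines alone. Over the left-out libraries, the count ran from 3 to 27. In D2 against D2-13B6, the 28 became 54 with total counts, 47 with offsets that follow abundance and 5 with the minimum fold, and ran from 17 to 36. In D2-13B6 against B6, the 50 became 15 with the minimum fold and ran from 38 to 59. In D2 against B6-13D2, the 11 became 23 with total counts, 19 with abundance offsets, 2 with the minimum fold, 22 in a fit of the compared lines alone and 7 with DESeq2, and ran from 3 to 22. The interaction's 10 became 16 with total counts, 21 with the chromosome 13 reference, 19 with abundance offsets and 1 with the minimum fold, and ran from 2 to 20. In B6-13D2 against B6, the 0 became 1 in a fit of the compared lines alone. It stayed 0 in every left-out fit with both B6-13D2 libraries, which leaves no member to be called in both interval comparisons. With the replicate block, the calls were 18 for D2 against B6, 17 for D2 against B6-13D2, 30 for D2 against D2-13B6, 51 for D2-13B6 against B6, 10 for the interaction and 0 for B6-13D2 against B6. The numbers do not pair the libraries (0 of 15 same-numbered pairs correlated above 0.1), so that this block is a description. Leaving out a B6-13D2 library leaves 1, which is assumed to vary like the other lines. Of 1072 values for the 49 named calls, 938 kept their call, 134 lost it and 0 reversed. Where a count moved, the cause was not tested. Depth limits the weakest regions: for B6-13D2 against B6, the 218 bp region had an SE of 0.41 where the Hist1h1e region had 0.19.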
